A study of Mus musculus with 6 samples.

Results

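The cone and rod transducin subunits are a set of 6 genes chosen by name, of 46078 genes in the count table. The cone set is Gnat2 (alpha), Gnb3 (beta) and Gngt2 (gamma), and the rod set is Gnat1 (alpha), Gnb1 (beta) and Gngt1 (gamma). They were measured by RNA-seq in cones sorted from organotypic retinal explants, cultured with the pigment epithelium from postnatal day (PN) 19 for 7 days. TSA explants received 10 nM trichostatin A, an inhibitor of class I and class II histone deacetylases, and DMSO explants received the same amount of its solvent, with 3 libraries in each group. All explants came from rd1TN-XL mice, in which a Pde6b defect kills the rods and the human red opsin promoter drives TN-XL, a fluorescent calcium sensor, in cones. Each library was made from 2000 to 5000 sorted TN-XL+ cells, and each biological replicate pooled at least 2 explants from different animals. The source names give a harvest at PN 26 for every library, whereas the time point labels give PN 29 to 31 for the TSA libraries and PN 26 to 28 for the DMSO libraries. If the time point labels hold, age and treatment cannot be told apart.

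Transducin is the heterotrimeric G protein of phototransduction. Light-activated opsin makes the alpha subunit exchange GDP for GTP, the alpha subunit leaves the beta-gamma pair, and it activates the cGMP phosphodiesterase PDE6, which closes the cGMP-gated channels of the outer segment. Rods and cones build this trimer from different genes, and the gamma subunits carry a lipid that holds the beta-gamma pair to the membrane.

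The libraries held 9135389 to 13650676 counts. Libraries of the same group correlated weakly, with Spearman coefficients of 0.49 to 0.66 across genes among TSA libraries and 0.47 to 0.48 among DMSO libraries. TSA 1 stood apart by markers of other cells. The 12 Müller glia markers took 1.61% of its counts, against 0.120% to 0.204% in the other TSA libraries and 0.158% to 0.307% in the DMSO libraries. The 12 microglia markers took 0.276% of TSA 1, 0.00837% and 0.0176% of the other TSA libraries, and at most 0.0194% of a DMSO library. The 14 cone markers other than transducin took 1.91% to 3.55% of the counts in TSA libraries and 1.52% to 3.47% in DMSO libraries. All 14 reached 10 counts in TSA 2 and in each DMSO library, and 12 did so in TSA 1 and in TSA 3.

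The gamma subunits are shown by their coding sequences, since they gave most of the transducin counts and belong to different photoreceptors by name. The sequences are those of the main GENCODE coding transcripts of Gngt2 (gene at chr11:95837216-95845734, plus strand, GRCm38) and of Gngt1 (gene at chr6:3993792-3997436, plus strand, GRCm38). The capitals mark the last 4 codons, the CaaX box that directs the lipid modification, which opens with the cysteine codon TGT in both genes.
Gngt2: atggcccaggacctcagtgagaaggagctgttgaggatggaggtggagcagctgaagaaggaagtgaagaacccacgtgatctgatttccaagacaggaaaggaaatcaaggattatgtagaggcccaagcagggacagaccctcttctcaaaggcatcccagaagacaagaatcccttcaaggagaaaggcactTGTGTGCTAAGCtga
Gngt1: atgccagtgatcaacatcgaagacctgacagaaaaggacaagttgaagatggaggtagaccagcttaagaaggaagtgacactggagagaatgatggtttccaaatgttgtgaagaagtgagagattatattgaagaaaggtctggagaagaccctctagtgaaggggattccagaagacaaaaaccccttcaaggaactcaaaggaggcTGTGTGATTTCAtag
The Gngt2 coding sequence has 210 bases and that of Gngt1 has 225 bases. They were identical at 140 of 227 aligned positions (61.7%), with a longest shared run of 13 bases. This is shorter than the reads of 75 bases. The alpha pair Gnat2 and Gnat1 was 72.5% identical with a longest run of 23 bases, and the beta pair Gnb3 and Gnb1 was 76.0% identical with a longest run of 20 bases.

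The other genes lie at chr3:108092789-108101432 on the plus strand (Gnat2), chr6:124834240-124840275 on the minus strand (Gnb3), chr9:107674474-107679712 on the minus strand (Gnat1) and chr4:155491361-155559269 on the plus strand (Gnb1), all in GRCm38. No 75-base word of a Gnat2, Gnb3, Gnb1 or Gngt1 transcript occurred in a transcript of another gene. Of 3173 words of Gnat1, 14 (0.441%) also occurred in the gene model Gm13075 and 1 further gene. Of 2014 words of Gngt2, 71 (3.53%) occurred in Abi3, a gene on the opposite strand whose exons share 234 bases (12.5%) with those of Gngt2. The library kit keeps no strand, so reads there could belong to either gene, but Abi3 was listed at 0 counts in all 6 libraries.

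RefSeq promoter sequences (GRCm38.p6) were matched for 3 of the 6 genes, namely Gnat2, Gnb1 and Gngt1. The 250 bases before each RefSeq start were searched on both strands for TAATCC, a site of the photoreceptor homeodomain factor CRX, and for TGCTGA, the core of sites of the rod factor NRL. TAATCC was found on the reverse strand, as GGATTA, 19 bases before the RefSeq start of Gnat2 and 44 bases before that of Gngt1, and is in capitals in the windows at chr3:108093035-108093064 and chr6:3993952-3993981 (plus strand). The GENCODE models given above start further upstream, so both windows lie inside the gene bounds of that annotation.
Gnat2: gggacaatccccGGATTAggaaggagctct
Gngt1: tcatattaggggGGATTAtgaagaagcttt
TAATCC was present in 6.38% of 27025 promoters searched in the same way. TGCTGA, present in 15.8% of them, was not found in the windows of these 3 genes, and neither motif was found in that of Gnb1.

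Both gamma subunits were among the most abundant genes of these sorted cones, while the rod alpha subunit was almost absent. Gngt2 had the most counts of any gene in 5 of the 6 libraries and ranked 2 in DMSO 2. Gngt1 ranked 4 to 7 in TSA libraries and 2 to 4 in DMSO libraries. Gnat2 ranked 41 to 177 in TSA libraries and 83 to 125 in DMSO libraries, and Gnb3 ranked 67 to 441 in TSA libraries and 132 to 401 in DMSO libraries. The 6 genes together took 2.23% to 2.95% of all counts in TSA libraries and 3.60% to 4.12% in DMSO libraries. These ranges of unscaled shares did not overlap, but most of the counts came from Gngt2 and Gngt1. The shares of Gnat2 and of Gnb3 overlapped between the groups. Gngt2 separated the groups by unscaled share but not with TMM factors for composition, with which only Gngt1 did so. How often sums of other genes separate the groups was not tested. In such bulk samples, fewer cells of a type and less RNA per cell cannot be told apart.

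**Figure D1:**
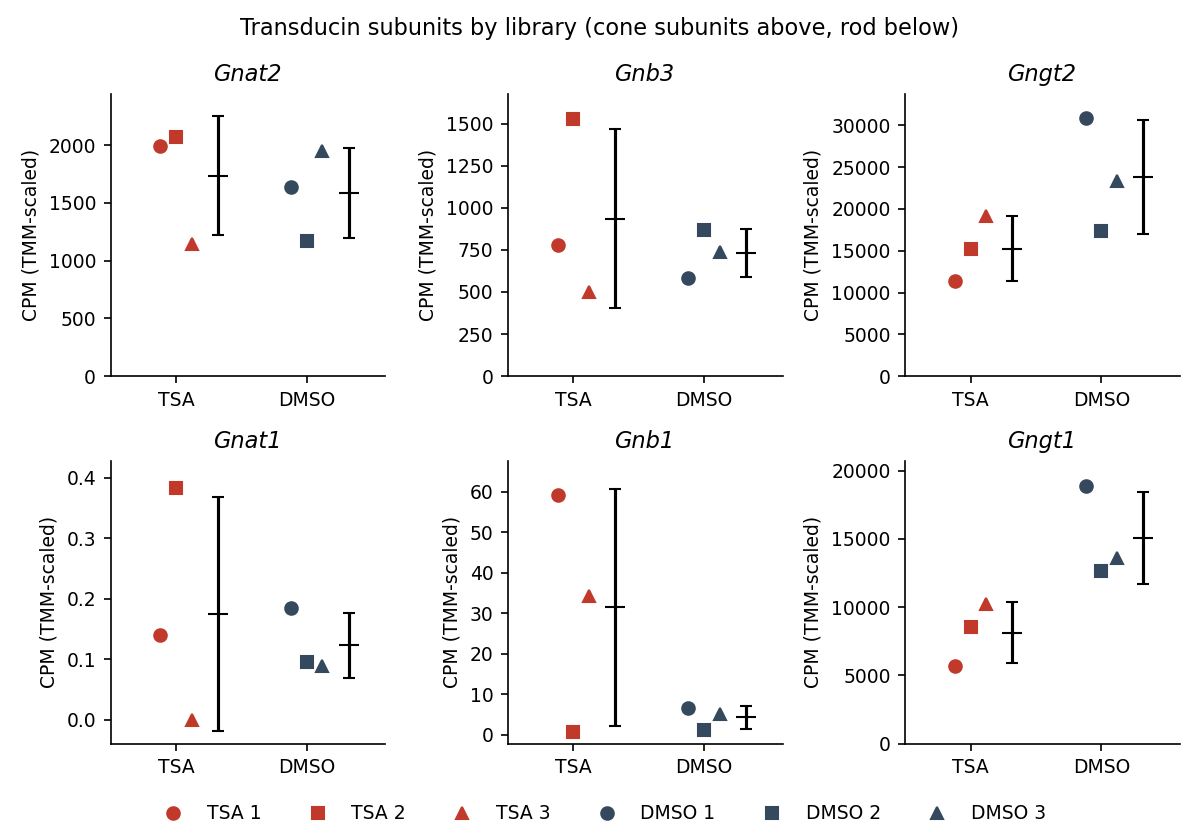
CPM (counts scaled to 1e6 per library, with TMM factors for composition; each vertical axis has its own range) of the 6 subunits in each library, with TSA left of DMSO; the bars give mean ± SD of 3 libraries. The TSA points of Gngt1 lie at 5711 to 10206 CPM, all under the DMSO points, while the groups overlap for the other genes.

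To set the subunits against each other, CPM were divided by the kilobases of annotated exons of each gene. The order was Gngt2, Gngt1, Gnat2, Gnb3, Gnb1 and Gnat1, and it was the same in each of the 6 libraries. With the longest annotated transcript as the length, Gnb3 lay above Gnat2 in TSA 2 and DMSO 2. Gngt2 averaged 8127 ± 2089 CPM per kb in TSA libraries and 12700 ± 3628 CPM per kb in DMSO libraries (SD, n = 3 each). Gngt1 averaged 2317 ± 646 CPM per kb in TSA libraries and 4280 ± 955 CPM per kb in DMSO libraries. Gngt2 lay above Gngt1 by 3.34 to 3.72 times in TSA libraries and by 2.57 to 3.20 times in DMSO libraries. The size of this gap depended on the length used, but not the order. With the longest coding transcript in place of all exons, Gngt1 averaged 6884 ± 1919 CPM per kb in TSA libraries and 12716 ± 2839 CPM per kb in DMSO libraries, and Gngt2 averaged 9613 ± 2471 CPM per kb and 15021 ± 4290 CPM per kb in the same groups. Gngt2 lay above Gngt1 in all 6 libraries by this length too, while the ranges of the genes over libraries overlapped within each group.

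The cone alpha and beta subunits followed at lower levels. Gnat2 averaged 580 ± 172 CPM per kb in TSA libraries and 529 ± 130 CPM per kb in DMSO libraries, and Gnb3 averaged 356 ± 202 CPM per kb in TSA libraries and 277 ± 53.7 CPM per kb in DMSO libraries. The ranges of these neighbours overlapped in TSA libraries (381 to 692 CPM per kb for Gnat2, 191 to 580 CPM per kb for Gnb3). In DMSO libraries they did not (391.7 to 650.2 CPM per kb for Gnat2, 222 to 329 CPM per kb for Gnb3). Gngt2 exceeded Gnat2 per kb by 9.09 to 26.8 times in TSA libraries and by 19.1 to 30.2 times in DMSO libraries. Gnb1 averaged 7.36 ± 6.87 CPM per kb in TSA libraries and 1.01 ± 0.669 CPM per kb in DMSO libraries, and Gnat1 averaged 0.0577 ± 0.0640 CPM per kb in TSA libraries and 0.0407 ± 0.0176 CPM per kb in DMSO libraries.

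**Figure D2:**
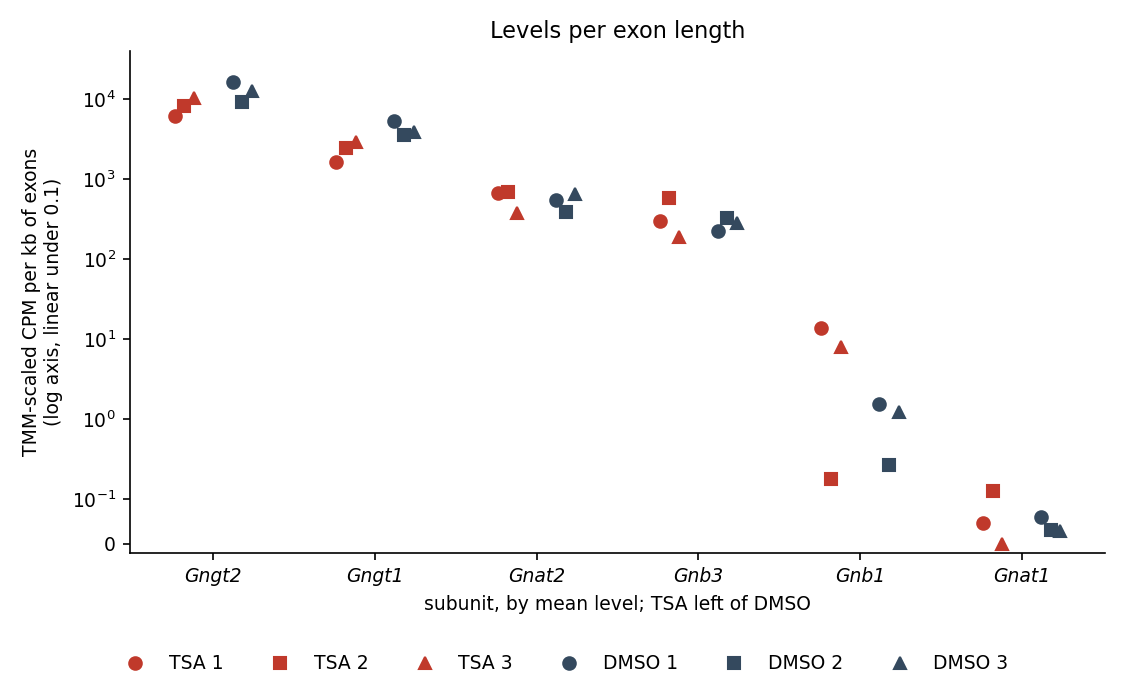
TMM-scaled CPM per kb of annotated exons (logarithmic axis, linear under 0.1) of each subunit in each library, ordered by mean level, with TSA left of DMSO. Gngt2 and Gngt1 lie highest in every library, and Gnat1 lowest at no more than 0.127 CPM per kb.

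The treatment comparison asked which subunits differed between TSA and DMSO cones. The fit took in the 9621 genes that exceeded 1 CPM in 2 or more libraries of either group. They were fitted together with the quasi-likelihood test of edgeR, and 5 of the 6 subunits were among them. None of the 5 was called at an adjusted p under 0.05, where the percentage called among all genes tested was 0. At an unadjusted p of 0.05 or less, 0 of the 5 were higher in TSA libraries (8.02% of all genes tested, 772 genes) and 1, Gngt1, was lower (2.3% of all genes tested, 221 genes). The groups did not overlap for 1 of the 5, again Gngt1, with every TSA library below every DMSO library (3.71% of all genes tested), and no subunit had every TSA library above (6.37% of all genes tested). DESeq2 called 656 genes higher and 200 lower at the same adjusted threshold, and limma-voom with quality weights called 32 higher and 5 lower. No subunit was called by any of the 16 alternatives run. The count at an unadjusted p was less stable. Gngt1 stayed at 0.05 or less in 14 of the 16, but not with DESeq2 (0.188) or without TSA 1 (0.0509). Gngt2 had an unadjusted value of 0.0553 and came to 0.05 or less in 8 of the 16, among them RLE factors (0.0367) and the library total alone (0.00531). The median log2 fold change of all genes tested was 0.02 with TMM factors, -0.05 with RLE factors, 0.15 by library total alone and 0.13 with upper-quartile factors. Relative to the median of the same scaling, Gngt1 lay at -0.92 to -0.90 and Gngt2 at -0.67 to -0.65 over the 4 scalings.

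Gngt1, the rod gamma subunit, was the lowest in TSA relative to DMSO. It had 80968, 111056 and 113493 counts in TSA 1, 2 and 3, against 204365, 132655 and 152145 counts in DMSO 1, 2 and 3. In CPM these were 5711, 8514 and 10206 in TSA libraries and 18877, 12619 and 13635 in DMSO libraries. The highest TSA library lay under the lowest DMSO library, also with RLE factors, upper-quartile factors or the library total alone in place of TMM. Gngt1 averaged 8144 ± 2270 CPM in TSA libraries and 15044 ± 3358 CPM in DMSO libraries (SD, n = 3 each), a ratio of 0.541. The log2 fold change was -0.89 ± 0.28 (SE), with an unadjusted p of 0.0156 and an adjusted p of 0.405 by edgeR, which ranked Gngt1 at 261 among the genes tested. The exact permutation test of its log2 CPM gave p = 0.1, two-sided, the smallest that 3 against 3 libraries allow. Over the 16 alternatives the log2 fold change stayed between -1.13 and -0.62, with adjusted p from 0.0704 to 0.807 by the tools run. Without TSA 1, the library rich in glial markers, it was -0.62 with an adjusted p of 0.677 by edgeR.

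Gngt2, the cone gamma subunit, lay in the same direction. It had 11360, 15204 and 19202 CPM in TSA 1, 2 and 3, against 30899, 17313 and 23302 CPM in DMSO 1, 2 and 3. TSA 3 exceeded DMSO 2, so the groups overlapped. By library total alone, without TMM factors, they did not, at 13230 to 16940 CPM in TSA libraries and 20628 to 24903 CPM in DMSO libraries. Gngt2 averaged 15255 ± 3921 CPM in TSA libraries and 23838 ± 6809 CPM in DMSO libraries (SD, n = 3 each). The log2 fold change was -0.64 ± 0.28 (SE), with an adjusted p of 0.503 by edgeR, and the exact permutation test gave p = 0.2. It stayed between -0.89 and -0.41 over the 16 alternatives.

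The cone alpha subunit Gnat2, which carries the signal from cone opsin to PDE6, had 1995, 2072 and 1142 CPM in TSA 1, 2 and 3, against 1635, 1173 and 1947 CPM in DMSO 1, 2 and 3. The lowest and the highest library were both in the TSA group. The means were 1736 ± 516 CPM in TSA libraries and 1585 ± 389.5 CPM in DMSO libraries, with a log2 fold change of 0.13 ± 0.37 (SE) and an adjusted p of 1.00 by edgeR (exact permutation p = 0.7). Without DMSO 2 it was -0.078.

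The cone beta subunit Gnb3 had 778, 1528 and 503 CPM in TSA 1, 2 and 3, against 584, 867 and 739 CPM in DMSO 1, 2 and 3. TSA 2 lay above every other library and TSA 3 below every other. The means were 936 ± 530 CPM in TSA libraries and 730 ± 141 CPM in DMSO libraries, with a log2 fold change of 0.36 ± 0.49 (SE) and an adjusted p of 1.00 by edgeR (exact permutation p = 0.8). Without TSA 2 it was -0.14. The part of bipolar or other cells in the Gnb3 values was not tested.

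Gnb1, the rod beta subunit, which also pairs with other G proteins in many cell types, was uneven. It had 840, 10 and 380 counts in TSA 1, 2 and 3, against 72, 12 and 58 counts in DMSO 1, 2 and 3. TSA 1 and TSA 3 lay above every DMSO library, and TSA 2 lay below all of them in CPM, with 0.767 CPM against 1.14 to 6.65 CPM in DMSO libraries. The log2 fold change of 2.86 ± 1.95 (SE) had an adjusted p of 0.948 by edgeR (exact permutation p = 0.4). It was 2.05 to 3.51 when single libraries were left out. Among other settings the lowest value was 1.26. TSA 1 with its glial and microglial markers had the highest Gnb1, but TSA 3 had the second highest with 0.120% Müller glia and 0.00837% microglia marker counts; the part of these cells in the Gnb1 values was not tested.

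Gnat1, the rod alpha subunit, had 2, 5 and 0 counts in TSA 1, 2 and 3, against 2, 1 and 1 counts in DMSO 1, 2 and 3, and did not pass the filter. The 5 counts of TSA 2 are 0.414 CPM of its unscaled total, with a 95% Wilson interval of 0.177 to 0.968. On the TMM-scaled total, the 0 of TSA 3 allows up to 0.270 CPM, the level of 3 counts. The interval and this limit cover counting error only, because PCR copies were not told apart. A difference in Gnat1 was not detectable at this depth.

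**Figure D3:**
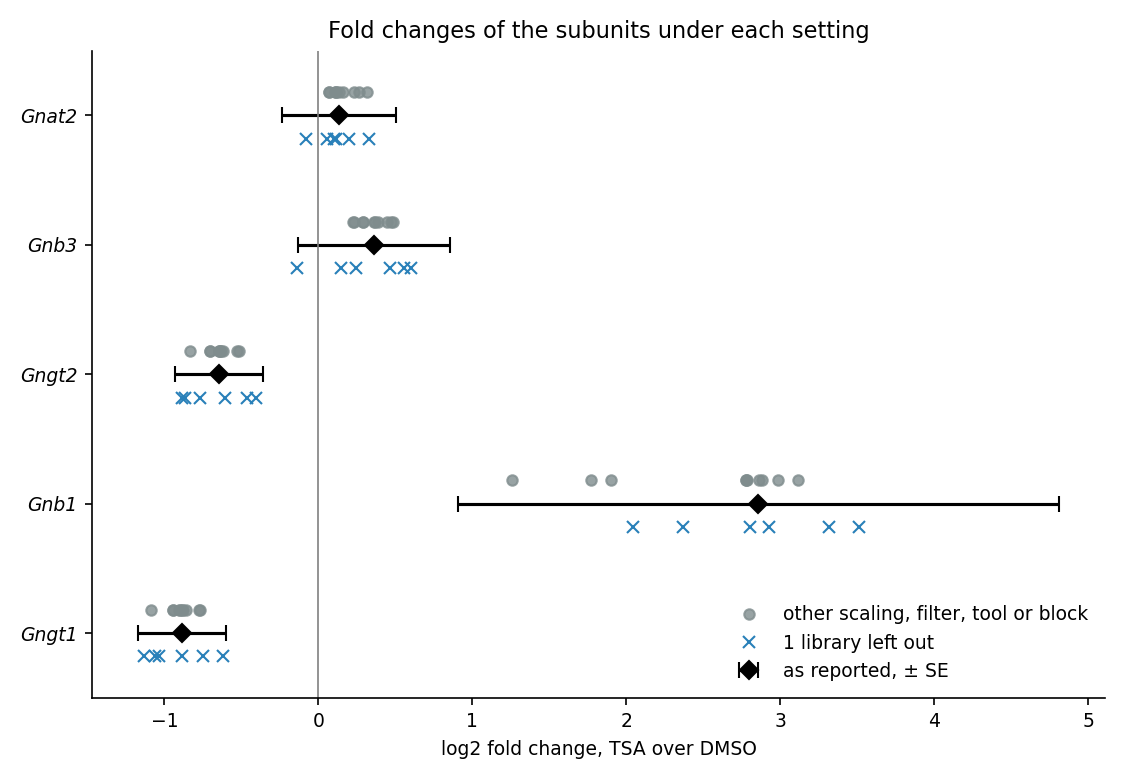
Log2 fold change, TSA over DMSO, of the 5 subunits tested, as reported with its SE (diamonds), under other scalings, filters, tools or the replicate block (circles), and with 1 library left out (crosses). Gngt1 and Gngt2 stay below 0 and Gnb1 above 0 throughout, while Gnat2 and Gnb3 each cross 0 when 1 library is left out.

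Ratios of a cone subunit to its rod counterpart within a library do not depend on the scaling between libraries, and are given as a description. Gngt2 over Gngt1 counts was 1.99, 1.79 and 1.88 in TSA 1, 2 and 3, against 1.64, 1.37 and 1.71 in DMSO 1, 2 and 3. All TSA ratios lay above all DMSO ratios. How often ratios of other gene pairs separate the groups was not tested. On the log2 scale the mean ratio was 0.91 ± 0.08 in TSA libraries and 0.65 ± 0.17 in DMSO libraries (SD, n = 3 each), a difference of 0.27. Gnb3 over Gnb1 was 13.1, 1993 and 14.7 in TSA 1, 2 and 3, against 87.9, 759 and 142 in DMSO 1, 2 and 3, so the groups overlapped widely. Gnat2 over Gnat1, from counts summed over the group, was 9714 in TSA libraries (95% interval 4714 to 24162) and 12941 in DMSO libraries (5054 to 47499). These intervals cover counting error only and take no account of PCR copies or of the spread between libraries.

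**Figure D4:**
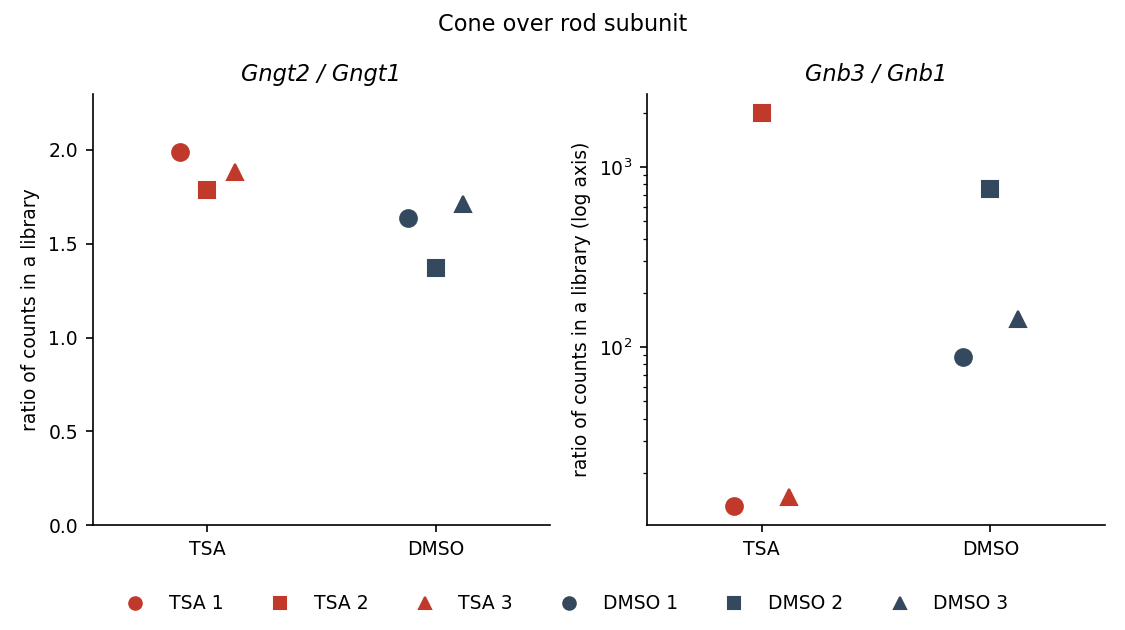
Ratio of counts of the cone gamma to the rod gamma subunit (left, linear axis) and of the cone beta to the rod beta subunit (right, logarithmic axis) in each library, with TSA left of DMSO. The gamma ratios are 1.79 to 1.99 in TSA and 1.37 to 1.71 in DMSO libraries, whereas the beta ratios overlap.

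The abundance of Gngt1 was not shared by the rod genes as a whole. The 14 rod markers other than transducin took 0.554% to 0.864% of the counts in TSA libraries and 0.488% to 0.910% in DMSO libraries, and 3 of them stayed under 10 counts in every library. Nrl and Nr2e3, which specify rods, had at most 1 count in any library. Most rod marker counts came from Sag (rod arrestin), with 25885 to 62481 counts in TSA libraries and 22221 to 31432 counts in DMSO libraries, and from Pde6g (the inhibitory subunit of rod PDE6), with 29621 to 38264 counts in TSA libraries and 17927 to 86451 counts in DMSO libraries. Rom1 and Prph2 followed, with 2452 to 11194 and 4048 to 4691 counts in TSA libraries. In DMSO libraries these 2 markers had 1035 to 7915 and 2448 to 4830 counts. DMSO 1 had the most Pde6g and the most Gngt1 counts. It also had the most total counts and the most of the cone genes Gngt2 (334528 counts) and Pde6h (200678 counts), but not of Gnat2 or Gnb3. Sag was highest in TSA 2. The summed share is that of the listed genes and is not a measure of rod transcripts. The part of rods, of the cones themselves or of other cells in the Sag, Pde6g, Rom1, Prph2 and Gngt1 values was not tested.

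**Figure D5:**
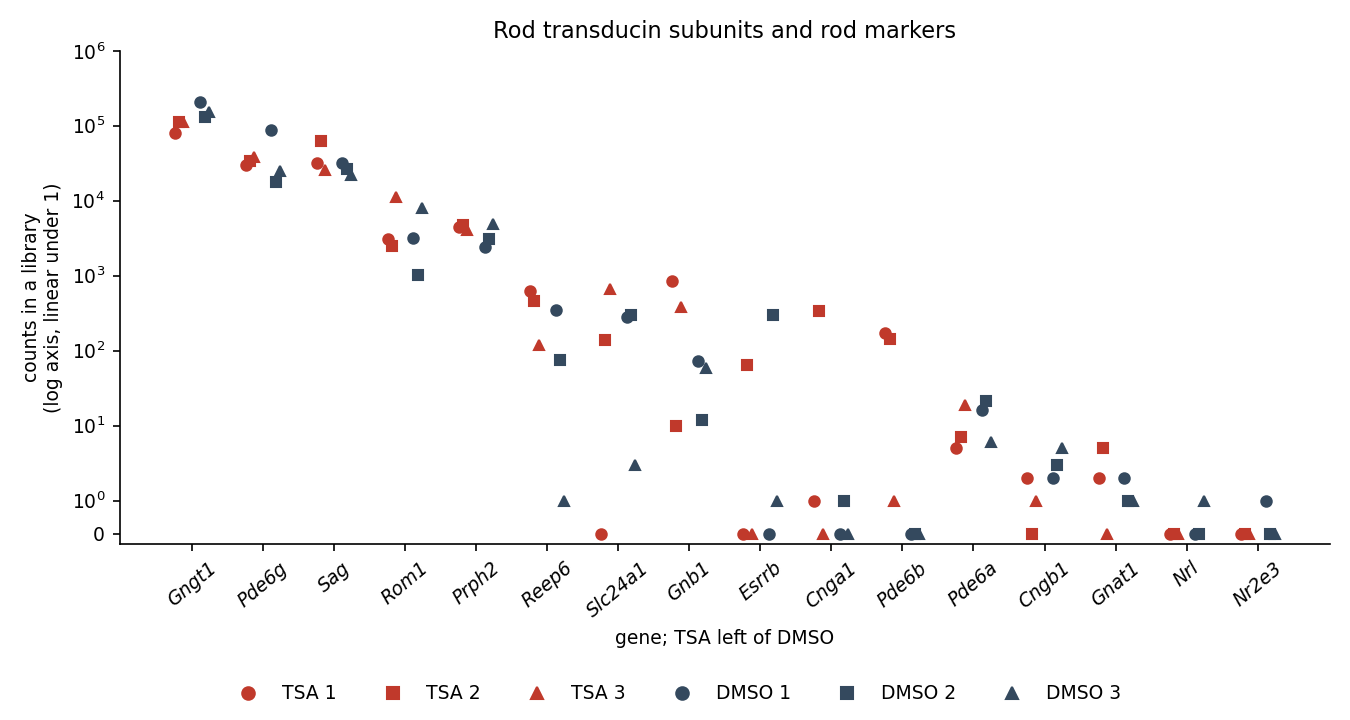
Counts per library (logarithmic axis, linear under 1) of the 3 rod transducin subunits and 13 of the rod markers, ordered by mean count, with TSA left of DMSO. Gngt1, Sag and Pde6g lie at 17927 counts or more in every library, while Gnat1, Nrl and Nr2e3 have 0 to 5.

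Across the 6 libraries, Gngt2 and Gngt1 varied together, with a Pearson r of 0.96 of their log2 CPM, whereas Gnat2 and Gnb3 had r = 0.52 and Gngt2 had r = -0.20 with Gnat2. These coefficients describe 6 libraries that differ in treatment and share their scaling. Among 2123 other tested genes of at least 50 CPM, those most like Gngt1 were Smim26 (r = 0.97), Gngt2 (r = 0.96) and Pcbp2 (r = 0.95). Those most like Gngt2 were the ribosomal protein gene Rps23 (r = 0.99), the cytochrome oxidase assembly gene Cox14 (r = 0.98) and the complex III subunit gene Uqcrb (r = 0.97). Gnat2 was most like 4833439L19Rik (r = 0.98), Xrcc4 (r = 0.98), which acts in DNA end joining, and Pmpcb (r = 0.97), a mitochondrial processing peptidase. Gnb3 was most like the chaperone gene Canx (r = 0.96), the hexokinase gene Hk2 (r = 0.96) and the splicing kinase gene Srpk2 (r = 0.93). Gnb1 was most like Snx3 (r = 0.96), Sh3bgrl3 (r = 0.93) and Six6 (r = 0.90).

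The genes that work with transducin numbered 23, of which 20 were tested: the opsins, the PDE6 subunits, the complex that speeds GTP hydrolysis, chaperones and enzymes of lipid modification. Of these, 9 had a log2 fold change above 0 and 11 below, with a median of -0.10. By edgeR 0 were called at an adjusted p under 0.05, and at an unadjusted p of 0.05 or less 1 was higher (8.02% of all genes tested) and 0 were lower (2.3% of all genes tested). The gene that was higher was Pde6b, the rod PDE6 beta subunit whose defect defines rd1, with 171, 141 and 1 counts in TSA 1, 2 and 3, and 0 counts in each DMSO library. Against a floor of 3 counts over the DMSO group, its counts pooled over the TSA group were at least 88.4-fold higher by scaled totals. This bound covers counting error only and takes no account of PCR copies or of the spread between libraries. The adjusted p of Pde6b was 0.405 by edgeR. Its TSA counts came almost wholly from TSA 1 and TSA 2, and TSA 3 had 1 count. Pde6b passed the filter through TSA 1 and TSA 2 alone, so it entered the test by the group where it was higher. Its unadjusted call and the bound are therefore description only.

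The groups overlapped for the cone receptors, effectors and chaperones of this list. Opn1mw (green-sensitive cone opsin) had 2828 to 6013 CPM in TSA libraries and 634 to 8291 CPM in DMSO libraries. Opn1sw (short-wavelength cone opsin) had 1120 to 9957 CPM in TSA libraries and 465 to 2150 CPM in DMSO libraries, its maximum being TSA 2, which also had the highest Gnb3. Pde6c, the catalytic subunit of cone PDE6, had 572 to 1131 CPM in TSA libraries and 624 to 1286 CPM in DMSO libraries. Its inhibitory partner Pde6h had 5180 to 11247 CPM in TSA libraries and 4191 to 18536 CPM in DMSO libraries. Pdc (phosducin), which binds the beta-gamma pair, had 575 to 993 CPM in TSA libraries and 252 to 1142 CPM in DMSO libraries. Unc119, which escorts the lipid-modified alpha subunit, had 1279 to 2632 CPM in TSA libraries and 1007 to 2468 CPM in DMSO libraries.

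The other G protein subunits numbered 27, of which 18 were tested, with 8 log2 fold changes above 0, 10 below and a median of -0.10. By edgeR 0 were called at an adjusted p under 0.05, and at an unadjusted p of 0.05 or less 0 were higher (8.02% of all genes tested) and 1 was lower (2.3% of all genes tested), namely the inhibitory alpha subunit Gnai1. It had 0, 0 and 1 counts in TSA 1, 2 and 3, against 63, 136 and 0 counts in DMSO 1, 2 and 3, so the groups overlapped (adjusted p = 0.405 by edgeR). Gnai1 passed the filter through DMSO 1 and DMSO 2 alone, the group where it was higher, so its unadjusted call is description only. Every TSA library lay above every DMSO library for 1 of the 18 (6.37% of all genes tested), the alpha subunit Gna13, named after its values were seen. It had 159, 521 and 593 counts in TSA 1, 2 and 3, against 3, 76 and 17 counts in DMSO 1, 2 and 3, with a log2 fold change of 3.53 ± 1.89 (SE) and an adjusted p of 0.708 by edgeR. The only ones of at least 100 CPM over the 6 libraries were gamma subunits. Gng13, which ON bipolar cells use, had 433 to 618 CPM in TSA libraries and 359 to 833 CPM in DMSO libraries, and the 16 bipolar markers, Gng13 included, took 0.172% to 0.492% of TSA and 0.133% to 0.280% of DMSO counts. Gng5 had 108 to 300 CPM in TSA libraries and 123 to 332 CPM in DMSO libraries. Gng11, the neighbour of Gngt1 at a distance of 6468 bases, had 28.9 to 123 CPM in TSA libraries and 99.4 to 283 CPM in DMSO libraries. No alpha or beta subunit outside the cone set reached 100 CPM on average.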

How the data were processed

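Cones were sorted by flow cytometry from rd1TN-XL explants treated with TSA or DMSO (3 libraries each), and cDNA was amplified over 17 PCR cycles and 11 further cycles during library preparation. The authors trimmed single reads of 75 bases, used STAR 2.5.4a for alignment (GRCm38) and Subread 1.6.0 for gene counts, as their methods and processing notes state. The deposited table holds raw counts. No molecular identifiers were used. A second deposited table holds the authors' own comparison and was not used. Columns of per-sample values left unused numbered 0.

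A gene was tested if 2 or more libraries of either group exceeded 1 CPM. The test was the quasi-likelihood F test in edgeR 4.0.16 (glmQLFTest, two-sided; R 4.3.3) with TMM factors and Benjamini-Hochberg adjustment over all genes tested. CPM are scaled by the TMM-adjusted totals of the tested genes. Permutation tests used log2(CPM + 0.5). DESeq2 1.42.0 and limma 3.58.1 served as alternatives, with other scalings, other filters, a replicate block and leaving out each library. Fits were also run on simulated counts with known changes. The outcome is not given here, and no statement on the accuracy of the fits rests on it. Gene models came from GENCODE vM21 and were used for positions and lengths; the annotation of the counts was Ensembl 75. The coding sequences were aligned globally with Biopython 1.88.

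The members and gene lists were chosen with earlier results of these data known. The text names the 6 subunits, the 3 genes with the highest r with each (log2 CPM with a prior count of 2, a mean of at least 50 CPM and at least 10 counts in every library), the other G protein subunits and partners with at least 100 CPM or an unadjusted p of 0.05 or less, genes whose exons overlap a member, and markers where a library stands apart. A rod marker counted in its list is not reported here by itself. Exceptions chosen after their values were seen are Nrl, Nr2e3, Sag, Rom1, Prph2, Gna13 and Cdca3. The replicates were made from separate explants, but the explants' animals are not told apart by the labels.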

Additional observations from a re-analysis of the deposited data

How the results depend on the processing

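Of 16 alternatives for each subunit, all kept the direction for Gngt1, Gngt2 and Gnb1, and 15 did for Gnat2 and for Gnb3; none brought a subunit to an adjusted p under 0.05. The exceptions were Gnb3 without TSA 2 (log2 fold change -0.14) and Gnat2 without DMSO 2 (-0.078). With single libraries left out, the log2 fold change ranged from -1.13 to -0.62 for Gngt1, -0.89 to -0.41 for Gngt2, 2.05 to 3.51 for Gnb1, -0.078 to 0.33 for Gnat2 and -0.14 to 0.60 for Gnb3. The number of genes called at an adjusted p under 0.05 was 0 higher and 0 lower by edgeR, 9 higher and 2 lower without a filter (29742 genes fitted), 656 and 200 by DESeq2, and 32 and 5 by limma-voom with quality weights. At an unadjusted p of 0.05 or less there were 993 genes, 2780 without a filter, 328 with filterByExpr, 611 with limma-trend, 620 with the replicate block, and 585 to 858 with single libraries left out, the lowest without TSA 1 and 634 without TSA 2. The causes were not tested. The labels number the replicates 1 to 3 in both groups, but same-numbered libraries did not deviate together (correlations of -0.01, 0.06 and 0.04), so the numbers were not taken as pairs. With the replicate block Gngt1 had a log2 fold change of -0.90 and an adjusted p of 0.759 by edgeR. The newer quasi-likelihood method of edgeR and the length of the longest coding transcript were added after seeing the data. The 0 to 5 counts of Gnat1 limit any statement on it. The common coefficient of variation between libraries of a group was 147% over the genes tested; that of CPM was 27.9% in TSA and 22.3% in DMSO libraries for Gngt1, 25.7% and 28.6% for Gngt2, and 29.7% and 24.6% for Gnat2 in the same groups.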

Other observations

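The fold changes of the gamma subunits can be set beside those of genes of similar transcript length, a description chosen after the values were seen. The genes compared were 2005 of at least 50 CPM and at least 10 counts in every library. Their median log2 fold change, TSA over DMSO, was -0.14, and 1173 of them (58.5%) were below 0. The 356 with a longest coding transcript under 1 kb had a median of -0.25, with 243 (68.3%) below 0. The 630 genes of 1 to 2 kb, the class of Gngt2 (1587 bases) and Gngt1 (1183 bases), had a median of -0.004, with 318 (50.5%) below 0. Gngt1 has 2976 bases by its longest annotated transcript and 3515 bases by all exons, so its class depends on the length used. The 593 genes of 2 to 4 kb had a median of -0.06, and the 426 genes over 4 kb one of -0.44, with 288 (67.6%) below 0. The medians of the shortest and the longest classes thus lay below that of all 2005 genes. Of the genes most like Gngt2, Rps23 (937 bases), Cox14 (723 bases) and Uqcrb (535 bases) had log2 fold changes of -0.66, -0.50 and -0.48. Of those most like Gngt1, Smim26 (471 bases) had -0.90 and Pcbp2 (3222 bases) had -1.46. These genes were chosen by their correlation with a gene lower in TSA libraries, which largely fixes their sign. The part of transcript length in these values was not tested.

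Cdca3, which ends 539 bases from Gnb3, had 0 counts in every TSA library and 739, 155 and 192 counts in DMSO 1, 2 and 3. Its adjusted p was 0.405 by edgeR. Cdca3 passed the filter through the DMSO libraries alone, the group where it was higher. Every TSA library lay below every DMSO library for 3.71% of all genes tested, so such a separation was not rare. Cdca3 was picked from the neighbours of the subunits after its counts were seen.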
